A study of Mus musculus with 6 samples.

Results

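The genes described here are 33 genes of Kupffer cells and other macrophages, among 55487 genes of the deposited count tables. They were chosen by name, from genes known to be expressed in the resident macrophages of the liver, in macrophages of other tissues, in myeloid cells at large or in leukocytes at large, and all 33 were found by symbol in the GENCODE mouse annotation of GRCm38. Earlier results of these data were known when they were chosen. RNA was sequenced from cultured primary hepatocytes that received no treatment, with 3 libraries from Alb/MDA-9 mice and 3 from WT littermates, all on the B6CBAF1 background and fed regular chow. Alb/MDA-9 mice came from crosses of heterozygotes with WT mice and express a C-terminally HA-tagged copy of human MDA-9/SDCBP (the PDZ scaffold syntenin) behind an upstream enhancer joined to the core promoter of mouse albumin, a promoter active in hepatocytes. WT mice carry no transgene. The labels give no age or sex, and they do not say that the libraries of a group came from separate animals or cultures, so p-values measure only the spread between these libraries, which may be technical.

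Kupffer cells are the macrophages that line the blood sinusoids of the liver and take up particles, bacteria and worn red cells from portal blood. Their upkeep depends on the receptor CSF1R and its ligands, and macrophage genes at large are read under the transcription factor PU.1, with MAF-family factors in many tissue macrophages. Hepatocytes do not normally express most of these genes. Primary hepatocyte preparations can carry over cells of the liver sinusoid, and the labels name hepatocytes as the cell type without a measure of purity. The members fall into 4 classes of decreasing restriction. The Kupffer-restricted class holds Marco, Cd5l, Vsig4, Clec4f and Timd4. Its name is a label, and whether macrophages other than Kupffer cells express these genes was not examined. The tissue macrophage class has 11 genes, such as Adgre1 (F4/80) and Csf1r, the general myeloid class has 12, such as Lyz2 and Tyrobp, and the pan-leukocyte class has 5, such as Ptprc (CD45).

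The libraries held 16403918 to 19046739 reads on the annotated strand of genes. Values are given as CPM, which are read counts scaled to library size with TMM factors, and 3 reads in a library correspond to 0.158 to 0.183 CPM. Of the hepatocyte markers, Alb (albumin) averaged 63059 CPM in Alb/MDA-9 and 56538 CPM in WT, with a difference that did not pass the test (edgeR adjusted p = 0.355). Of 11 hepatocyte markers, 7 had a log2 change below 0, the median was -0.11, and Cps1, the first enzyme of the urea cycle, was lower at 88.4 ± 11.3 CPM in Alb/MDA-9 and 171 ± 5.88 CPM in WT (SD, n = 3 each, log2 change -0.95, SE 0.09, edgeR adjusted p = 2.49e-05). Apob, a lipoprotein of hepatocytes, was higher (log2 change 0.36, SE 0.08, edgeR adjusted p = 0.00999), a call that ended with library totals (adjusted p = 0.0579) and without WT 2 (0.0718). Mouse Sdcbp, the endogenous counterpart of the transgene, had 181, 171 and 171 CPM across Alb/MDA-9 1, 2 and 3, against 178, 173 and 164 CPM in WT 1, 2 and 3 (edgeR adjusted p = 0.863). The human transcript was not counted separately here, so these values do not check the genotype labels. Principal component 1 (55.5% of the variance) separated the genotypes, and Alb/MDA-9 3 lay away from the rest on component 2 (17.0%).

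The start regions of the Kupffer-restricted genes are shown because this class had the largest median change between the genotypes, and PU.1 and MAF motifs can be looked for in them. RefSeq on GRCm38.p6 gave a region of 300 bases, 250 before to 50 after the annotated start, for 24 of the 33 members. The PU.1 core, GAGGAA, and the MAF half-site, TGCTGA, were searched on both strands. No match of one overlaps a match of the other in the 5 regions that follow. Both are in capitals, and the regions read 5′ to 3′ on the strand of the gene, so that TTCCTC and TCAGCA mark matches on the opposite strand. Marco lies on chromosome 1 (minus strand, chr1:120504975-120505274), Cd5l on chromosome 3 (plus strand, chr3:87357631-87357930) and Vsig4 on chromosome X (minus strand, chrX:96293389-96293688). Clec4f lies on chromosome 6 (minus strand, chr6:83656067-83656366) and Timd4 on chromosome 11 (plus strand, chr11:46810549-46810848). Each region covers the start of the gene and its first transcribed bases.
Marco: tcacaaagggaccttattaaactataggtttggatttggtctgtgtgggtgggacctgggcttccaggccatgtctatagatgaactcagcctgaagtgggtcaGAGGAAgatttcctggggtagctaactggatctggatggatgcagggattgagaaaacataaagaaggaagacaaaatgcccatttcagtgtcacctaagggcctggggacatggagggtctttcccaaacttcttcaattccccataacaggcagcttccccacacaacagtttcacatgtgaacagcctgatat
Cd5l: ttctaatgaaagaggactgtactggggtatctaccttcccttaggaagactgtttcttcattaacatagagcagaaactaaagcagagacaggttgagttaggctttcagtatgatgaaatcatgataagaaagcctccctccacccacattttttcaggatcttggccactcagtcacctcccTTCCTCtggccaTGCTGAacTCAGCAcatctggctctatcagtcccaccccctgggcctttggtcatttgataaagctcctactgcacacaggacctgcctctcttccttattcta
Vsig4: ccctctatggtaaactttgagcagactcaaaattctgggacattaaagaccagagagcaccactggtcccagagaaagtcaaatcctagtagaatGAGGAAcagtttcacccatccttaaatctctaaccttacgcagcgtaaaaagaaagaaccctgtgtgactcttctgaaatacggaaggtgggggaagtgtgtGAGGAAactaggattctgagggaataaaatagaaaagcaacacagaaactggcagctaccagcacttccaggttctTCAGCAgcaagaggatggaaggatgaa
Clec4f: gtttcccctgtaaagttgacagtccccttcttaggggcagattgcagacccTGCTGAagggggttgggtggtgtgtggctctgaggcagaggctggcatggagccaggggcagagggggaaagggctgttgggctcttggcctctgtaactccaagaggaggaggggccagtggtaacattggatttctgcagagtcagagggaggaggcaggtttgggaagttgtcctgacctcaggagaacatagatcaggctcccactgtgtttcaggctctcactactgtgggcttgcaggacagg
Timd4: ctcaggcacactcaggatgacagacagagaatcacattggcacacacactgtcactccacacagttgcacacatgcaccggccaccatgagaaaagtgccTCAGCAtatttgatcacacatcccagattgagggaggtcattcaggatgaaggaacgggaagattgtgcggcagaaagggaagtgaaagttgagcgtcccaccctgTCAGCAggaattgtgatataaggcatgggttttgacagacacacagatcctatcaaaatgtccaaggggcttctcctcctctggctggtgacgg

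The PU.1 core was found in the regions of Marco, Cd5l and Vsig4, and not in those of Clec4f and Timd4. The MAF half-site was found in Cd5l, Vsig4, Clec4f and Timd4, and not in Marco. Over the 24 members with a region, 17 (70.8%) held the PU.1 core, and 8446 of 27025 RefSeq genes with a region (31.3%) held it. The MAF half-site was in 10 of the 24 (41.7%), against 21.7% of all genes. The longer letters GAGGAAGT, which contain the PU.1 core, were in C1qc, Cd53 and Ctss, 12.5% of the 24, against 3.69% of all genes. The core was in 8 of 12 regions of members that were lower in Alb/MDA-9 by the expression test, and in 7 of 10 regions of tested members that did not pass. A match is a description of the sequence and not evidence of binding.

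Many of the macrophage genes were lower in Alb/MDA-9 hepatocyte cultures than in WT cultures, and the Kupffer-restricted genes had the largest median change of the 4 classes. Of the 33 members, 31 had enough reads to be tested, and 15 of them were lower in Alb/MDA-9, against 7.09% of all 13296 genes tested (edgeR, adjusted p under 0.05 by Benjamini-Hochberg over all genes). The members were chosen with earlier results of these data known, so this and the following shares are descriptions and no test of enrichment. None of the 31 was higher (edgeR), none was higher at an unadjusted p under 0.05 and none was higher with DESeq2 or limma voom, whereas 7.35% of all genes tested were higher. The median log2 change over the 31 genes was -0.64, and over all genes tested it was -0.0015. Every Alb/MDA-9 library lay below every WT library for 17 of the 31 tested members, against 16.5% of all genes tested, and the 15 genes called lower, those past the test's threshold, were all among these 17. Of the 16 that did not pass, 14 had a log2 change below 0 and 2, Unc93b1 and Cd52, above 0. A fall of at least 2-fold was called for 7 members, namely Marco, Cd5l, Vsig4, Adgre1, Lyz2, Tyrobp and Cd53, against 2.64% of all genes tested.

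The filter on low counts kept 29 of the 31 genes with every Alb/MDA-9 library at its limit, and 14 of the 15 lower genes were among these. Adgre1 and Ptprc reached the limit in 2 of the 3 Alb/MDA-9 libraries and in all WT libraries. Cd52, with a log2 change above 0, reached it in all Alb/MDA-9 libraries and in 1 WT library, so the WT libraries alone would not have kept it. Fcgr1, the high-affinity IgG receptor, had 3, 1 and 4 reads in Alb/MDA-9, against 13, 11 and 7 reads in WT. Aif1, which encodes the macrophage protein IBA1, had 0, 1 and 4 reads in Alb/MDA-9, against 3, 3 and 7 reads in WT. Neither gene was tested. In these bulk libraries, fewer cells of a type and less RNA per cell cannot be told apart.

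**Figure D1:**
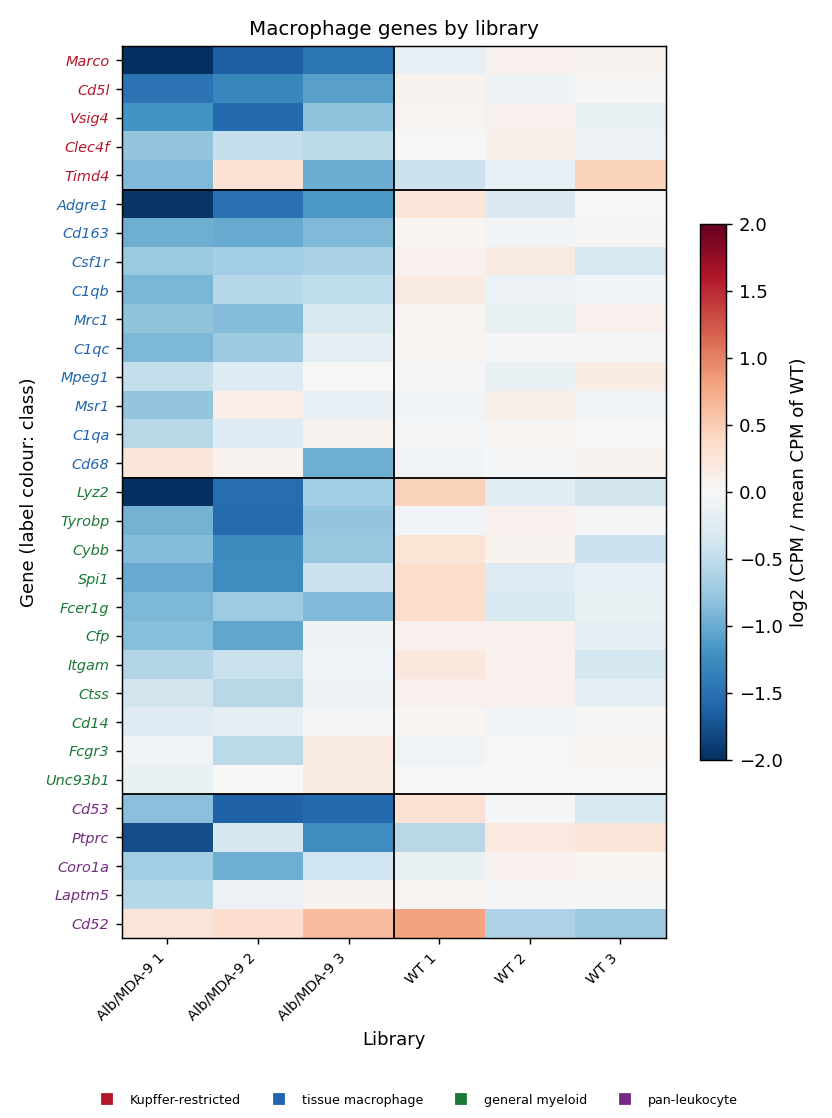
Heat map of the 31 tested genes (down the page, grouped by class) in the 6 libraries (across), with colour giving log2 of CPM over the mean CPM of the WT libraries. The Alb/MDA-9 libraries are blue for nearly all Kupffer-restricted genes, and Cd68 is blue in Alb/MDA-9 3 alone.

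Of the 5 Kupffer-restricted genes, Marco, Cd5l, Vsig4 and Clec4f fell and Timd4 did not pass the test. Marco, a collagen-like scavenger receptor for bacteria and particles, had 5.75, 7.396 and 8.37 CPM across Alb/MDA-9 1, 2 and 3, against 20.4, 24.2 and 23.9 CPM in WT 1, 2 and 3. All Alb/MDA-9 values lay below all WT values, and Marco was at 31.4% of the WT mean (log2 change -1.67, SE 0.15, edgeR adjusted p = 1.51e-05). Cd5l, a secreted scavenger-receptor protein also called AIM, had 5.86, 6.58 and 7.71 CPM across Alb/MDA-9 1, 2 and 3, against 17.2, 15.2 and 16.6 CPM in WT 1, 2 and 3. The groups were again apart (log2 change -1.28, SE 0.14, edgeR adjusted p = 7.82e-05).

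Vsig4, the complement receptor CRIg that captures C3-coated bacteria from blood, had 3.54, 2.74 and 4.58 CPM across Alb/MDA-9 1, 2 and 3, against 8.33, 8.56 and 7.28 CPM in WT 1, 2 and 3. Alb/MDA-9 2 was the lowest of the 3 low libraries, and the WT libraries were close to each other (log2 change -1.16, SE 0.20, edgeR adjusted p = 0.00233). Clec4f, a galactose-binding lectin found on rodent Kupffer cells, had 7.46, 9.32 and 8.85 CPM across Alb/MDA-9 1, 2 and 3, against 12.98, 13.9 and 11.8 CPM in WT 1, 2 and 3. Its groups were apart by a smaller margin, with Clec4f at 66.2% of the WT mean (log2 change -0.60, SE 0.14, edgeR adjusted p = 0.013), and its call ended without WT 2 (adjusted p = 0.0776).

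Timd4, the phosphatidylserine receptor TIM-4 of resident macrophages, had 0.774, 1.75 and 0.723 CPM across Alb/MDA-9 1, 2 and 3, against 1.06, 1.28 and 1.95 CPM in WT 1, 2 and 3. The groups overlapped, with Alb/MDA-9 2 among the highest values, and the difference did not pass the test (log2 change -0.39, SE 0.42, edgeR adjusted p = 0.584). It was read 12 to 30 times per library in Alb/MDA-9 and 21 to 33 times in WT. Marco, Cd5l and Vsig4 remained lower whichever single library was left out.

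Of 10 tissue macrophage genes tested, 6 fell, namely the receptors Adgre1, Cd163, Csf1r and Mrc1 and the complement chains C1qb and C1qc, while Cd68, Msr1, Mpeg1 and C1qa did not pass the test. Adgre1, the adhesion receptor F4/80, had 0.553, 0.757 and 0.963 CPM across Alb/MDA-9 1, 2 and 3, against 2.52, 1.74 and 2.13 CPM in WT 1, 2 and 3. The libraries of the 2 groups did not overlap (log2 change -1.49, SE 0.34, edgeR adjusted p = 0.0124), but the gene was at the edge of the filter and its call ended without WT 1 (adjusted p = 0.063). Cd163, the receptor that clears haemoglobin bound to haptoglobin, had 11.9, 11.7 and 12.8 CPM across Alb/MDA-9 1, 2 and 3, against 24.2, 22.5 and 23.8 CPM in WT 1, 2 and 3. The spread within each group was small, Cd163 was at 51.7% of the WT mean (log2 change -0.95, SE 0.10, edgeR adjusted p = 7.82e-05), and it remained lower whichever library was left out.

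Csf1r, the receptor for the growth factors CSF1 and IL-34, had 7.404, 7.69 and 7.89 CPM across Alb/MDA-9 1, 2 and 3, against 13.1, 13.9 and 9.88 CPM in WT 1, 2 and 3. The Alb/MDA-9 libraries were nearly level and WT 3 was the lowest WT library (log2 change -0.69, SE 0.15, edgeR adjusted p = 0.0105), and the call ended without WT 2 (adjusted p = 0.0718). Mrc1, the mannose receptor CD206, had 4.14, 3.96 and 5.84 CPM across Alb/MDA-9 1, 2 and 3, against 7.52, 6.51 and 7.69 CPM in WT 1, 2 and 3. Alb/MDA-9 3 came closest to the WT range (log2 change -0.64, SE 0.19, edgeR adjusted p = 0.043). The call for Mrc1 held when Alb/MDA-9 3 was left out and ended without any one of the other libraries (adjusted p of up to 0.146).

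Cd68, a lysosomal glycoprotein of macrophages, was the most abundant member per length of transcript, at 197 CPM per kb in Alb/MDA-9 and 216 CPM per kb in WT. In WT, Cd14 was at 69.4, Csf1r at 2.13 and Ptprc at 0.0932 CPM per kb. Which cells gave the reads of Cd68 and Cd14 was not tested. Cd68 differed between libraries. It had 322, 284 and 137 CPM across Alb/MDA-9 1, 2 and 3, against 262, 267 and 284 CPM in WT 1, 2 and 3. Alb/MDA-9 1 lay above the WT range, Alb/MDA-9 2 at its upper end and Alb/MDA-9 3 well below it (log2 change -0.13, SE 0.22, edgeR adjusted p = 0.743). Its log2 change turned positive, 0.16, without Alb/MDA-9 3. Msr1, the class A scavenger receptor, and Mpeg1, the pore-forming protein perforin-2, were at 85.4% and 85.1% of the WT mean, with overlapping groups (adjusted p = 0.549 and 0.209, edgeR).

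The genes of complement C1q, the recognition part of the classical complement pathway, lie together on chromosome 4 within 18.7 kb (GRCm38, 136880129 to 136898803) and are expressed mainly by macrophages. C1qb, the B chain, had 13.8, 17.5 and 18.2 CPM across Alb/MDA-9 1, 2 and 3, against 29.03, 23.8 and 25.1 CPM in WT 1, 2 and 3. Its groups were apart, with WT 1 the highest library (log2 change -0.66, SE 0.13, edgeR adjusted p = 0.00416). C1qc, the C chain, had 8.896, 10.02 and 14.6 CPM across Alb/MDA-9 1, 2 and 3, against 17.2, 16.4 and 16.2 CPM in WT 1, 2 and 3. Alb/MDA-9 3 was the highest of the low libraries (log2 change -0.57, SE 0.16, edgeR adjusted p = 0.0362), and the call held without Alb/MDA-9 3 but ended without any one of the others (adjusted p of up to 0.141). C1qa, the A chain, had 18.9, 23.00 and 28.96 CPM across Alb/MDA-9 1, 2 and 3, against 26.8, 28.7 and 27.5 CPM in WT 1, 2 and 3. Alb/MDA-9 3 lay above the WT range, and the difference did not pass the test (log2 change -0.23, SE 0.13, edgeR adjusted p = 0.286).

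The ratios between the chains were compared next. C1qa had 1.37, 1.31 and 1.59 reads per C1qb read in Alb/MDA-9 1, 2 and 3, against 0.922, 1.202 and 1.094 in WT 1, 2 and 3. The Alb/MDA-9 ratios all lay above the WT ratios, and so did those of C1qa to C1qc, which averaged 2.13 ± 0.159 in Alb/MDA-9 and 1.67 ± 0.103 in WT (SD, n = 3 each). The ratio of C1qb to C1qc overlapped between the groups. By an exact two-sided permutation test of the means, p = 0.1 for both ratios with C1qa, which is the smallest p that 3 against 3 libraries allow, and p = 0.8 for C1qb to C1qc (0.15 and 0.8 after adjustment over the 3 ratios).

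Of 11 general myeloid genes tested, 4 fell, namely lysozyme, a pair of signalling adaptors and the oxidase subunit Cybb. Lyz2, the lysozyme of macrophages and granulocytes, had 1.44, 2.096 and 3.73 CPM across Alb/MDA-9 1, 2 and 3, against 8.23, 5.13 and 4.67 CPM in WT 1, 2 and 3. Alb/MDA-9 3 was the highest low library and WT 1 the highest of all (log2 change -1.32, SE 0.33, edgeR adjusted p = 0.0175). Lyz2 shares 95.8% of 1264 transcript bases with Lyz1, which had 0 reads in all libraries, so reads common to both may be missing from its count. Leaving out WT 1, Alb/MDA-9 1 or Alb/MDA-9 2 ended its call (adjusted p of up to 0.1).

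Tyrobp, the adaptor DAP12 that carries signals of myeloid receptors, had 2.100, 1.398 and 2.35 CPM across Alb/MDA-9 1, 2 and 3, against 3.89, 4.31 and 3.96 CPM in WT 1, 2 and 3. The groups were apart (log2 change -1.05, SE 0.25, edgeR adjusted p = 0.0143), and the call ended without WT 2 or Alb/MDA-9 2 (adjusted p of up to 0.0725). Fcer1g, the signalling chain shared by Fc receptors, had 3.205, 3.67 and 3.25 CPM across Alb/MDA-9 1, 2 and 3, against 7.67, 4.87 and 5.44 CPM in WT 1, 2 and 3. WT 1 was above the other WT libraries (log2 change -0.83, SE 0.22, edgeR adjusted p = 0.0238). The call for Fcer1g ended with limma voom (adjusted p = 0.052) and without WT 1, Alb/MDA-9 1 or Alb/MDA-9 2 (adjusted p of up to 0.13).

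Cybb, the catalytic subunit of the phagocyte NADPH oxidase, had 3.37, 2.56 and 3.61 CPM across Alb/MDA-9 1, 2 and 3, against 7.42, 6.41 and 4.56 CPM in WT 1, 2 and 3. WT 3 was the lowest WT library and still above Alb/MDA-9 (log2 change -0.95, SE 0.23, edgeR adjusted p = 0.0163), and leaving out WT 1, WT 2 or Alb/MDA-9 2 ended the call (adjusted p of up to 0.0872). Spi1, which encodes PU.1 itself, had 0.884, 0.757 and 1.32 CPM across Alb/MDA-9 1, 2 and 3, against 2.27, 1.49 and 1.598 CPM in WT 1, 2 and 3. All Alb/MDA-9 values lay below all WT values, yet the difference did not pass the test (log2 change -0.86, SE 0.35, edgeR adjusted p = 0.132).

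The other general myeloid genes did not pass the test. Cd14, the co-receptor for lipopolysaccharide and the second most abundant member per length, had 101, 106 and 118 CPM across Alb/MDA-9 1, 2 and 3, against 124, 115 and 122 CPM in WT 1, 2 and 3. The groups overlapped, with Alb/MDA-9 3 within the WT range (log2 change -0.15, SE 0.08, edgeR adjusted p = 0.22). Unc93b1, which brings nucleic acid-sensing Toll-like receptors to endosomes, was level at 102% of the WT mean (log2 change 0.02, SE 0.09, edgeR adjusted p = 0.901). Ctss (cathepsin S), Cfp (properdin), Itgam (CD11b) and Fcgr3 had log2 changes of -0.34, -0.62, -0.35 and -0.11 with overlapping groups. Fcgr3 shares 96.3% of 512 transcript bases with Fcgr2b, and Itgam overlaps Gm49368 on the same strand, so their counts are uncertain.

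Of the pan-leukocyte genes, 1 fell. Cd53, a leukocyte tetraspanin, had 0.995, 0.582 and 0.602 CPM across Alb/MDA-9 1, 2 and 3, against 2.17, 1.74 and 1.42 CPM in WT 1, 2 and 3. The groups were apart (log2 change -1.28, SE 0.36, edgeR adjusted p = 0.034), but the call held without Alb/MDA-9 1 and ended without any one of the other libraries (adjusted p of up to 0.139). Ptprc, the phosphatase CD45 of all nucleated blood cells, had 0.497, 1.34 and 0.723 CPM across Alb/MDA-9 1, 2 and 3, against 1.16, 1.95 and 2.01 CPM in WT 1, 2 and 3. The libraries overlapped, with Alb/MDA-9 2 above WT 1 (log2 change -0.99, SE 0.41, edgeR adjusted p = 0.137).

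Coro1a, an actin-binding protein of leukocytes, was at 62.6% of the WT mean with the groups apart, without passing the test (adjusted p = 0.165, edgeR). Laptm5, a lysosomal membrane protein, was at 88.1% of the WT mean (adjusted p = 0.593, edgeR). Cd52, a small surface glycoprotein of leukocytes, was at 133% of the WT mean (adjusted p = 0.618, edgeR), and WT 1 was its highest library. These 5 genes had WT means of 0.783 to 5.24 CPM.

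**Figure D2:**
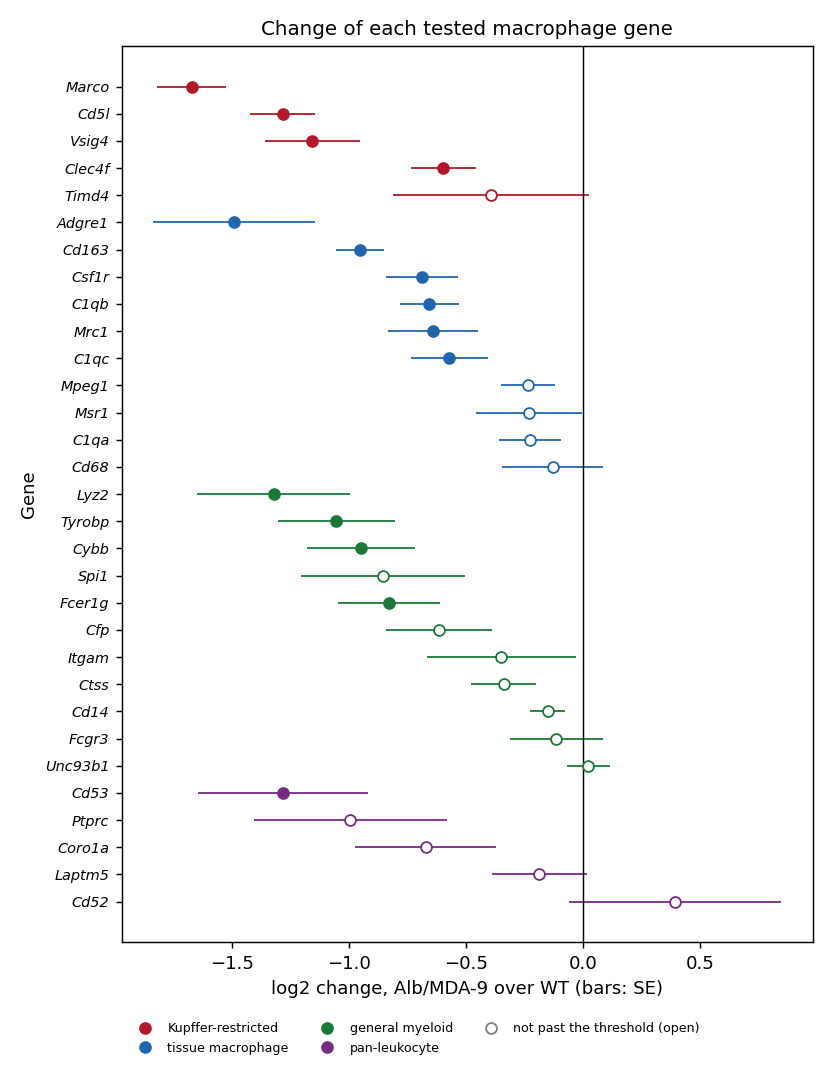
Log2 change of each tested gene (Alb/MDA-9 over WT, horizontal axis) with its SE as a bar, ordered within the 4 classes, where filled points passed the test and open points did not. The changes run from -1.67 for Marco to 0.39 for Cd52, and the filled points are all below 0.

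The shares of lower genes ran from Kupffer-restricted to pan-leukocyte classes as 4 of 5, 6 of 10, 4 of 11 and 1 of 5 tested. Over all genes tested, 7.09% were lower. The median log2 changes of the classes were -1.16, -0.61, -0.62 and -0.67. The medians of the 3 broader classes were thus close to each other. The classes also differed in level, with median WT means of 12.9, 20.03, 6.01 and 1.78 CPM in the same order. Their SEs ran from 0.14 to 0.42, 0.10 to 0.34, 0.08 to 0.35 and 0.20 to 0.45. How far the shares follow read depth and not class was not tested. No test was made of the difference between the classes, since their members were chosen with earlier results known. Left out in turn, single libraries moved the number of lower members a great deal. It was 8 without WT 1, WT 2 or Alb/MDA-9 2, 11 without Alb/MDA-9 1, 12 without WT 3 and 18 without Alb/MDA-9 3. The number of lower Kupffer-restricted genes was 4 in each of these settings except without WT 2, where it was 3. The number of lower genes in the other classes was 4 without WT 1 or Alb/MDA-9 2, 5 without WT 2, 7 without Alb/MDA-9 1, 8 without WT 3 and 14 without Alb/MDA-9 3.

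Summed over the class, Kupffer-restricted genes had 23.4, 27.8 and 30.2 CPM across Alb/MDA-9 1, 2 and 3, against 59.98, 63.2 and 61.6 CPM in WT 1, 2 and 3. That was 44.0% of the WT mean, and the Alb/MDA-9 libraries were at about the same distance from WT. The other 28 members had 596, 582 and 487 CPM across Alb/MDA-9, against 665, 644 and 666 CPM in WT, which was 84.3% of the WT mean. In this sum Alb/MDA-9 3 was the lowest library, and Cd68 and Cd14 alone held 60.5% ± 9.91 of the members' CPM in Alb/MDA-9 and 54.3% ± 1.25 in WT (SD, n = 3 each). The cells that gave these reads were not tested, so the sum of the other 28 members is no measure of macrophage content.

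Without Cd68 and Cd14, a setting chosen after the values were seen, the other 26 members had 173, 191 and 232 CPM across Alb/MDA-9, against 279, 262 and 261 CPM in WT, or 74.4% of the WT mean. Alb/MDA-9 3 was then the highest of the Alb/MDA-9 libraries. It was the highest of the 3 for 26 of the 33 members, so its low sum rested on Cd68. The Kupffer-restricted genes made up 11.9%, 12.7% and 11.5% of the members without Cd68 and Cd14 in Alb/MDA-9, against 17.7%, 19.4% and 19.1% in WT. These shares did not overlap between the groups, and no test was made of them.

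**Figure D3:**
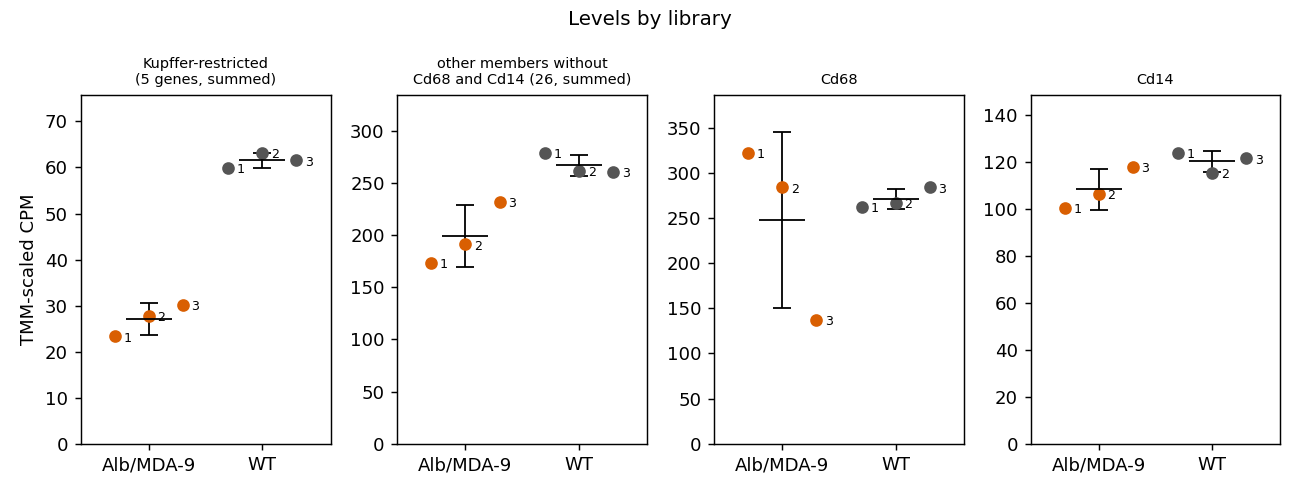
TMM-scaled CPM in each library (points, numbered by replicate) for the sum of the 5 Kupffer-restricted genes, the sum of 26 other members, Cd68 and Cd14, with bars for mean and SD (n = 3). The Kupffer-restricted sum is 23.4 to 30.2 CPM in Alb/MDA-9 and 59.98 to 63.2 CPM in WT, while Cd68 and Cd14 overlap between the groups.

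Further genes listed for macrophages moved less uniformly, and which cells gave their reads was not tested. Their levels differed widely. In WT, Lcp1 averaged 360, Myd88 28.1 and Tfec 1.32 CPM, beside 1.79 CPM for Spi1 and 1.71 CPM for Ptprc. Of 17 further Kupffer cell genes, 11 were tested and 3 were lower, against 7.09% of all genes tested. The median log2 change was -0.64, and 8 of the 11 were below 0. Slc40a1, Il18bp and Slc11a1 were above 0 (log2 changes 0.19, 0.17 and 0.32) and did not pass the test. Mertk, a receptor for dying cells, had 6.58, 5.53 and 8.49 CPM across Alb/MDA-9 1, 2 and 3, against 17.7, 13.2 and 14.7 CPM in WT 1, 2 and 3. Its groups were apart (log2 change -1.15, SE 0.17, edgeR adjusted p = 9.18e-04). Axl, a related receptor, had 5.53, 7.57 and 7.41 CPM across Alb/MDA-9, against 14.6, 12.3 and 11.8 CPM in WT (log2 change -0.92, SE 0.16, edgeR adjusted p = 0.00224), and Cd38, an ectoenzyme that breaks down NAD, had 3.32, 3.203 and 3.07 CPM across Alb/MDA-9, against 6.31, 7.02 and 4.73 CPM in WT (log2 change -0.92, SE 0.21, edgeR adjusted p = 0.0109). The count of lower genes was 6 with library totals in place of TMM, 5 with limma voom or no filter, 5 without Alb/MDA-9 3 and 2 without WT 2, which ended the call for Cd38 (adjusted p = 0.0772).

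Of 15 transcription factors of macrophages, 14 were tested and 2 were lower, against 7.09% of all genes tested. Id1, an inhibitor of basic helix-loop-helix factors, had 1.22, 1.22 and 0.963 CPM across Alb/MDA-9 1, 2 and 3, against 2.88, 2.77 and 2.96 CPM in WT 1, 2 and 3. The groups did not overlap (log2 change -1.33, SE 0.28, edgeR adjusted p = 0.00682). Tfec, a factor of the MITF family in macrophages, had 0.553, 0.116 and 0.0602 CPM across Alb/MDA-9, against 1.06, 1.13 and 1.78 CPM in WT (log2 change -2.37, SE 0.59, edgeR adjusted p = 0.0189). Leaving out WT 2, WT 3 or Alb/MDA-9 2 ended its call (adjusted p of 0.0521, 0.0802 and 0.0845), and 2 of its Alb/MDA-9 libraries were under the level of 3 reads. Tfec had 10, 2 and 1 reads across Alb/MDA-9, against 21, 22 and 30 in WT. It passed the filter on low counts through the WT libraries alone, so a lower level in Alb/MDA-9 was partly built into its selection. The median log2 change of this list was -0.20, 11 of the 14 were below 0, and the list summed to 101% of WT. Runx1, Cebpb and Irf5 were above 0 (log2 changes 0.26, 0.31 and 0.15) and did not pass the test.

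Of 25 genes of myeloid receptor signalling, the oxidase and the actin cytoskeleton, 21 were tested. The log2 change was below 0 for 19 of them, and the groups were apart in that direction for 12, against 16.5% of all genes tested, but 1 passed the test as lower and 1 as higher. The 12 include Myo1f, which had 10, 6 and 7 reads across Alb/MDA-9, against 29, 15 and 16 in WT. Myo1f passed the filter on low counts through the WT libraries alone. Lcp2, the adaptor SLP-76, had 1.05, 2.21 and 1.81 CPM across Alb/MDA-9 1, 2 and 3, against 4.59, 4.101 and 4.201 CPM in WT 1, 2 and 3. It was lower in every Alb/MDA-9 library (log2 change -1.35, SE 0.28, edgeR adjusted p = 0.00603). Lcp1, the actin bundler L-plastin, had 524, 501 and 462 CPM across Alb/MDA-9, against 344, 362 and 375 CPM in WT (log2 change 0.46, SE 0.07, edgeR adjusted p = 0.00133). Lcp1 was higher in every Alb/MDA-9 library. The count of lower genes was 5 without the filter or with limma voom, 4 with library totals, 2 with upper-quartile factors, 3 without Alb/MDA-9 3 and 2 without Alb/MDA-9 1.

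Toll-like receptor and lysosomal genes had median log2 changes of 0.01 and 0.10. Of 13 genes of Toll-like receptor sensing, 10 were tested and 2 were higher. Tlr2, a receptor for bacterial lipopeptides, had 9.17, 11.5 and 10.7 CPM across Alb/MDA-9 1, 2 and 3, against 6.46, 7.59 and 8.05 CPM in WT 1, 2 and 3. The groups were apart (log2 change 0.50, SE 0.15, edgeR adjusted p = 0.0452). Myd88, the adaptor of most Toll-like receptors, had 33.8, 33.9 and 40.4 CPM across Alb/MDA-9, against 25.9, 27.5 and 30.8 CPM in WT (log2 change 0.36, SE 0.10, edgeR adjusted p = 0.0313). Both calls ended with upper-quartile factors or library totals and when WT 1, WT 2, Alb/MDA-9 2 or Alb/MDA-9 3 was left out, and that of Tlr2 ended without WT 3 too.

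Of 19 lysosomal genes of phagocytes, 18 were tested and 5 were higher, of which Ctsc (cathepsin C) was the clearest, with 79.01, 84.4 and 97.2 CPM across Alb/MDA-9, against 68.2, 58.7 and 61.9 CPM in WT. Its groups were apart (log2 change 0.46, SE 0.09, edgeR adjusted p = 0.00463). Grn (progranulin), Ctsz (cathepsin Z) and Npc2 (a cholesterol carrier of the lysosome) had log2 changes of 0.33, 0.29 and 0.29 (adjusted p of 0.011, 0.0195 and 0.0247, edgeR). All 3 of these calls ended with library totals and without WT 2 or Alb/MDA-9 2, and further that of Grn without WT 3 and those of Ctsz and Npc2 without WT 1. With library totals, 1 gene of the list was higher and 3 were lower, so the direction of the list depended on the scaling. The count of higher genes was 2 without WT 1, 3 without WT 3, and 1 without WT 2 or Alb/MDA-9 2. Hepatocytes express many lysosomal genes as well.

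The growth factor of macrophages and a chemokine that draws monocytes moved in opposite directions. Csf1, which encodes a ligand of CSF1R, had 16.02, 20.6 and 25.3 CPM across Alb/MDA-9 1, 2 and 3, against 34.4, 33.5 and 28.1 CPM in WT 1, 2 and 3. All Alb/MDA-9 libraries were below WT (log2 change -0.64, SE 0.14, edgeR adjusted p = 0.0112), and leaving out WT 1, WT 2 or Alb/MDA-9 2 ended the call (adjusted p of 0.0544, 0.0541 and 0.0522). Ccl2, a chemokine for monocytes, had 278, 269.9 and 305 CPM across Alb/MDA-9 1, 2 and 3, against 121, 120.0 and 122 CPM in WT 1, 2 and 3. Its level was more than 2-fold higher in every Alb/MDA-9 library (log2 change 1.23, SE 0.07, edgeR adjusted p = 3.33e-07). Il34, the other ligand of CSF1R, had a log2 change of -0.50 that did not pass the test.

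**Figure D4:**
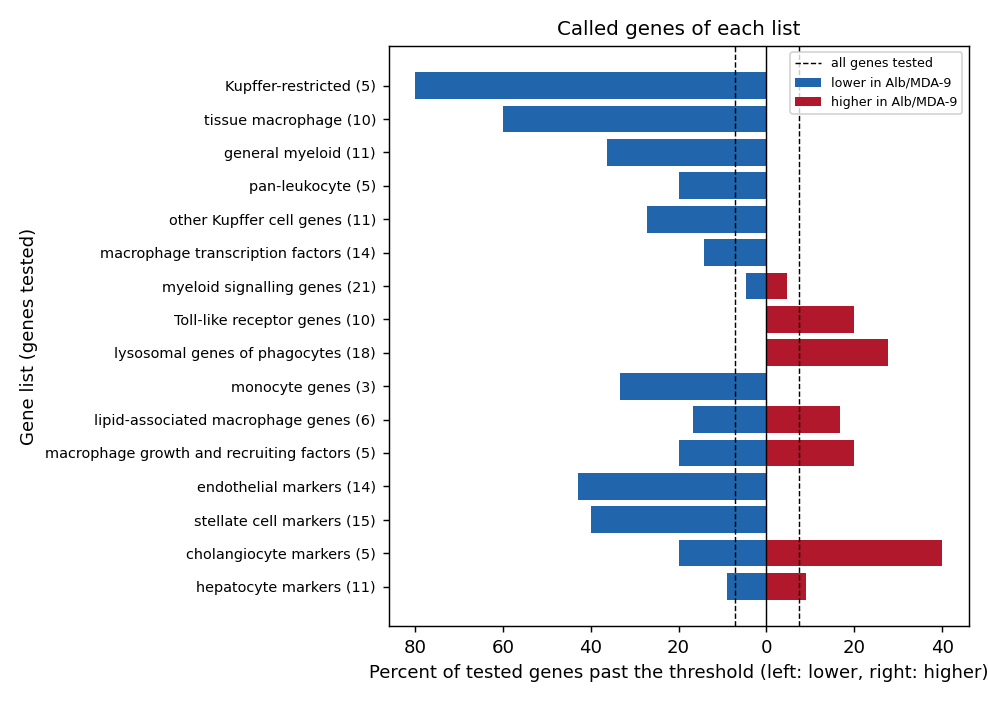
Percent of the tested genes of each list that were lower (left, blue) or higher (right, red) in Alb/MDA-9, with the number tested in brackets and dashed lines at the shares over all genes tested (7.09% lower, 7.35% higher). The macrophage classes, further Kupffer cell genes, monocyte genes, endothelial markers and stellate cell markers extend to the left. Lysosomal and Toll-like receptor genes extend to the right. Cholangiocyte markers have the longest bar to the right (2 of 5 tested) and 1 lower gene.

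Part of the markers of other cells of the sinusoid were lower beside the macrophage genes. Of 15 endothelial markers, 14 were tested, 6 were lower and 8 did not pass, against 7.09% lower over all genes tested. The log2 change was below 0 for 11 of the 14, with a median of -0.36, and 1 had the groups apart in the higher direction. The list summed to 188 to 203 CPM in Alb/MDA-9, against 253 to 267 CPM in WT, or 74.1% of WT. Lyve1, the hyaluronan receptor of sinusoidal endothelium, had 25.7, 24.8 and 32.3 CPM across Alb/MDA-9 1, 2 and 3, against 60.2, 51.1 and 44.5 CPM in WT 1, 2 and 3. Its groups were apart (log2 change -0.91, SE 0.12, edgeR adjusted p = 4.24e-04). Eng (endoglin), Cdh5 (VE-cadherin) and Egfl7 (a protein secreted by endothelium) had log2 changes of -0.88, -0.46 and -0.64 and were called lower.

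Of 15 stellate cell markers, all were tested, 6 were lower and 9 did not pass. The log2 change was below 0 for 13 of the 15, with a median of -0.54. The list summed to 319 to 366 CPM in Alb/MDA-9, against 428 to 444 CPM in WT, or 79.8% of WT. Dcn (decorin), Bgn (biglycan) and Sparc, matrix proteins, and Pdgfrb, a growth factor receptor, had log2 changes of -0.74, -0.96, -0.70 and -1.14 and were called lower, and leaving out WT 1, WT 3 or Alb/MDA-9 2 ended the call for Pdgfrb (adjusted p of 0.0554, 0.0707 and 0.0561). The count of lower endothelial markers was 4 to 6 and that of stellate markers 3 to 6 when single libraries were left out, with 3 stellate markers lower without WT 1 or WT 3, and 4 endothelial markers lower without WT 1 or Alb/MDA-9 2. The part of these cells in the macrophage result was not tested. The Kupffer-restricted sum was at 44.0% of WT beside these 2 sums, but a sum is weighted to its genes of highest level. By gene the ranges overlapped. The endothelial and stellate markers named as lower ran from 45.1% (Pdgfrb) to 72.6% (Cdh5) of WT. The lower Kupffer-restricted genes ran from 31.4% (Marco) to 66.2% (Clec4f).

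Blood-borne leukocytes were barely measured. Of 12 monocyte genes, 3 were tested, 9 had too few reads and 2 were at 0 in all libraries. Plac8, expressed by monocytes and other leukocytes, had 2.49, 1.81 and 2.23 CPM across Alb/MDA-9 1, 2 and 3, against 4.59, 3.54 and 4.497 CPM in WT 1, 2 and 3. It was lower in every Alb/MDA-9 library (log2 change -0.95, SE 0.24, edgeR adjusted p = 0.0181), and leaving out WT 1, WT 3 or Alb/MDA-9 2 ended the call (adjusted p of 0.0783, 0.0733 and 0.0703). Of 16 lymphocyte markers, 10 were at 0 in all libraries and 1 was tested. That gene was Ccl5, a chemokine also made by other cells, with 2.87, 3.38 and 2.65 CPM across Alb/MDA-9, against 2.02, 0.615 and 0.533 CPM in WT (log2 change 1.46, SE 0.43, edgeR adjusted p = 0.0379). Its call held without WT 1 or Alb/MDA-9 3 and ended without any one of the other libraries (adjusted p of 0.0682 to 0.147). Of 10 neutrophil and 8 dendritic cell markers, 5 and 5 were at 0 in all libraries, and the neutrophil list summed to at most 0.641 CPM in Alb/MDA-9 and 0.828 CPM in WT. Csf3r, the receptor for the neutrophil growth factor G-CSF, and Zbtb46, a transcription factor of dendritic and endothelial cells, were the only tested genes of these lists and did not pass (log2 changes -0.47 and 0.22, edgeR adjusted p = 0.59 and 0.419).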

How the data were processed

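Each deposited table holds raw read counts per gene, per the file headers those of STAR, with 1 column for either strand and 1 for each strand. The submitters' processing notes name STAR 2.7.9a, Trim Galore 0.6.6, FastQC 0.11.2 and edgeR 3.18.1 and the builds GRCm38 and mm10. Annotation and options were not given in the sources used here. The reverse-strand column (96.9% to 97.2% of stranded reads) was used, without the 4 rows that name no gene (34.2% to 37.5% of reads). STAR counts reads with a single position, so near-identical copies lose reads. Symbols came from GENCODE M21, which held 55141 of 55487 identifiers.

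Genes were filtered with filterByExpr (minimum count 10), scaled by TMM and fitted in edgeR 4.0.16 (R 4.3.3, glmQLFit and glmQLFTest), with 4 residual degrees of freedom and Benjamini-Hochberg adjustment over 13296 genes at 0.05. The procedure was tested on simulated data. SE is the size of the log2 change divided by the root of F. Alternatives were DESeq2 1.42.0, limma 3.58.1 (voom with quality weights), other filters and scalings, unstranded counts, a replicate block and each library left out. All members are accounted for, and of other lists up to 4 called genes with the smallest adjusted p are named, otherwise those of highest level. The members and lists were chosen with earlier results of these data known. Intervals and floors cover counting error only.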

Additional observations from a re-analysis of the deposited data

How the results depend on the processing

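The number of members lower in Alb/MDA-9 was 15, and 14 to 16 with no filter, a stricter filter (minimum count 30), DESeq2, upper-quartile factors, library totals, limma voom or unstranded counts. Leaving out 1 library gave 8 to 18 lower members, 3 to 4 lower Kupffer-restricted members, 4 to 14 lower members of the other classes, and a median log2 change of the tested members of -0.81 to -0.55. No member was higher in any setting run. With the replicate number as a block, 15 members were lower, and the correlations between same-numbered libraries, -0.041, -8.7e-05 and -0.062, gave no sign that the numbers pair the libraries. Of the genes named from other lists, Tlr2 was not called with the block (adjusted p = 0.0532). Vsig4, Cd5l, Marco, C1qb and Cd163 remained lower whichever library was left out. Of the 15 lower members, 14 remained lower in each of the 8 settings with all libraries in which they were tested. Fcer1g did not with limma voom, and Cd53 was not tested with the stricter filter. The summed Kupffer-restricted CPM had a log2 ratio of -1.27 to -1.08 and that of the other members -0.30 to -0.16 when 1 library was left out. Over all genes, 977 were higher and 943 lower, 525 higher and 1622 lower with library totals, which moved the median log2 change by -0.10, and 722 higher and 1087 lower with upper-quartile factors. Under library totals the median of the tested members was -0.74. Leaving out 1 library gave 1018 to 2386 called genes. Of the 16 tested members that did not pass, 6 had fewer than 50 reads in every library, so differences in these were not detectable at this depth unless large.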

Other observations

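Of 9 genes of lipid-handling macrophages, 6 were tested, 1 was higher and 1 was lower in Alb/MDA-9. Fabp5, a fatty acid binding protein that other cells of the liver also express, had 54.8, 65.7 and 70.9 CPM across Alb/MDA-9 1, 2 and 3, against 10.9, 9.79 and 8.93 CPM in WT 1, 2 and 3. It was higher in every Alb/MDA-9 library (log2 change 2.69, SE 0.12, edgeR adjusted p = 2.01e-08). Lpl, lipoprotein lipase, had 2.82, 3.38 and 2.95 CPM across Alb/MDA-9 1, 2 and 3, against 5.65, 7.59 and 6.45 CPM in WT 1, 2 and 3. It was lower in every Alb/MDA-9 library (log2 change -1.11, SE 0.20, edgeR adjusted p = 0.00274).

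Of 8 markers of cholangiocytes, the cells of bile ducts, 5 were tested, 2 were higher and 1 was lower in Alb/MDA-9. Sox9, a transcription factor of bile ducts, had 58.6, 56.6 and 58.6 CPM across Alb/MDA-9 1, 2 and 3, against 29.2, 37.5 and 33.6 CPM in WT 1, 2 and 3 (log2 change 0.79, SE 0.09, edgeR adjusted p = 1.32e-04). Krt19, a duct keratin, was higher (log2 change 0.57, SE 0.14, edgeR adjusted p = 0.0147). Leaving out WT 1 or Alb/MDA-9 2 ended this call (adjusted p of 0.0654 and 0.078). Krt7, another duct keratin, was lower (log2 change -1.71, SE 0.32, edgeR adjusted p = 0.00388).

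The members lie on 13 chromosomes and the 15 lower members on 10. Of the tested genes within 5 Mb of each lower member, 9.09% to 27.1% were called in either direction, with a median of 13.3%, against 14.4% of all genes tested. The highest share, 26 of 96 genes, lay around Cd163 on chromosome 6.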
